A study of Mus musculus with 6 samples.

Results

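Collagen chain genes were taken as all genes whose symbol has the form Col, a type number, the letter a and a chain number. The rule found 44 genes among the 34245 genes of the table. RNA-seq was performed on 3 Dnmt3b+/- peripheral T-cell lymphomas (PTCL), one group without a control library in the table, and expression was measured as FPKM, which divides the reads of each gene by exon length and sequencing depth. The tumors came from lymph nodes of FVB mice that carried a conventional Dnmt3b knockout allele in all cells beside a wild-type allele and that were terminally sick when harvested. Their ages are not given in the sources used here, and the tumors were whole tissue, with no sorting of cells described for the RNA. The study asked how loss of a single Dnmt3b allele changes gene expression in lymphoma. Other libraries of the study, from control CD8+ T-cells, from Dnmt3a-deficient lymphomas and from bisulfite sequencing, were not analysed here, so all values below describe 3 tumors and no test was made.

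Collagens are extracellular proteins built of 3 chains wound into a triple helix, in which glycine recurs at a fixed interval. Fibroblasts and other mesenchymal cells make most of the fibrillar types of a lymph node, whose reticular fibers carry type III collagen, and endothelial and mural cells deposit the type IV network of vessel walls. T-cells produce few of these chains, so in a lymphoma collagen mRNA is usually read as a measure of its stroma.

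Dnmt3b itself was present in every tumor, with 0.975, 1.55 and 1.25 FPKM in tumors 1, 2 and 3. This value covers all exons and does not separate the 2 alleles. T-cell mRNA was present in every sample, as 10 of 10 markers were above 0.2 FPKM in every tumor, beside 36.7% of all genes. This limit does not measure what part of a sample was T-cells. The summed FPKM of the 10 markers was 1385, 1073 and 1503 in tumors 1, 2 and 3, led by Cd8b1, Cd8a and Lck. Cd8a, with 259, 122 and 218 FPKM, and Cd8b1, with 435, 166 and 443 FPKM, were lowest in tumor 2. Tumor 2 was highest for 5 of the 10, beside 35.3% of all genes with a mean of at least 0.2 FPKM. Depth, read from the FPKM of genes without a read, was 30726162, 18970133 and 20770829 reads. Tumor 3 stood apart from the others in that most genes of stromal cells were low or without reads in it, and its values are named as such below.

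The 44 chains together held 24.8, 110.0 and 10.5 FPKM in tumors 1, 2 and 3. Tumor 2 was thus far above both other tumors, and its sum was 10.5 times that of tumor 3. Without Col11a2, Col20a1 and Col9a3, left out for reasons given below, that ratio was 25.7. The mean of the sums was 48.4 ± 53.8 FPKM (SD, n = 3), a spread larger than the mean itself, and without tumor 2 the mean was 17.6 FPKM. Collagen chains made up 0.0131%, 0.0531% and 0.00470% of all FPKM in tumors 1, 2 and 3. In bulk tissue, fewer collagen-producing cells and less collagen mRNA per cell cannot be told apart.

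Of the 44 chains, 24 reached 0.2 FPKM in at least 1 tumor and 20 stayed below it in all 3. Above 0.2 FPKM in every tumor were 7 chains, namely Col1a1, Col11a2, Col6a3, Col9a3, Col20a1, Col15a1 and Col23a1, while 36.7% of all genes passed the same limit. Leaving out tumor 1 or tumor 2 left the count at 7, while 18 chains were above 0.2 FPKM in tumors 1 and 2. The same share over all genes was not taken, so nothing particular to collagen is read from the 18. The mean over the tumors was at least 0.2 FPKM for 22 chains, and these were used for the comparisons between tumors. Tumor 2 was highest for 21 of the 22, against 35.3% of all genes with such a mean, and Col6a3 was the exception with its highest value in tumor 1. Tumor 3 was lowest for 17 of the 22, against 39.9% of all genes. This mean includes tumor 2, and 8 of the 22 chains passed the limit through it alone. With genes kept by their mean over tumors 1 and 3 instead, tumor 2 was highest for 13 of 14 chains, against 32.4% of all genes, a check added after the values had been seen.

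For 16 of the 22 chains, against 9.82% of all genes, over 66.7% of the total FPKM lay in 1 tumor, which was tumor 2 in all 16 cases. The 6 other chains were Col11a2, Col6a3, Col20a1, Col9a3, Col12a1 and Col23a1. With tumor 2 left out, 9 chains, among them Col6a3, held over 66.7% of the FPKM of tumors 1 and 3 in 1 of them. That limit is easier to pass over fewer tumors, and no share over all genes was taken, so nothing is read from this count. Of the 16, 7 were among the chains kept through tumor 2 alone, and with genes kept by tumors 1 and 3 the count was 9 of 14 chains, against 8.32% of all genes. The median over the 22 chains of log2(tumor 2 / tumor 1) was 2.49, beside -0.18 over the 14721 genes with a mean of at least 0.2 FPKM. For log2(tumor 3 / tumor 1) the median was -4.40 over the chains and -0.29 over all genes. With genes without a read set to the FPKM of 3 reads, the floor used here for a count of 0, that median was -2.83 over the chains. With the 14 chains kept by tumors 1 and 3, the median of log2(tumor 2 / tumor 1) was 2.29, beside -0.24 over the genes kept in the same way. With the 24 chains of at least 0.2 FPKM in tumor 2, that of log2(tumor 3 / tumor 1) was -3.55, or -2.49 with 3 reads in place of 0, beside -0.27 over all such genes. Under either choice of genes the typical chain was thus higher in tumor 2 and lower in tumor 3 than in tumor 1 by more than the typical gene.

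Reads were recovered for 20 of the 22 chains. No read was found in tumor 3 for 9 of these 20, against 4.60% of the 13033 genes with the same mean and recovered reads. At least 10-fold lower in tumor 3 than in each other tumor, with tumor 3 counted at no less than 3 reads, were 10 of the 20, against 1.09% of those genes. These 10 were Col1a2, Col3a1, Col5a1, Col5a2, Col4a1, Col4a2, Col6a1, Col6a2, Col12a1 and Col14a1. Of the 9 without a read in tumor 3, 6 had been kept through tumor 2 alone. With genes kept by tumors 1 and 3, 3 of 12 chains had no read in tumor 3, against 3.48% of such genes, and 7 of the 12 were at least 10-fold lower in it, against 0.981%. A chain with no read in tumor 3 passes this limit through tumor 1 alone, so only the choice through tumor 2 is removed. The 10-fold threshold and this check were chosen after the values had been seen.

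**Figure D1:**
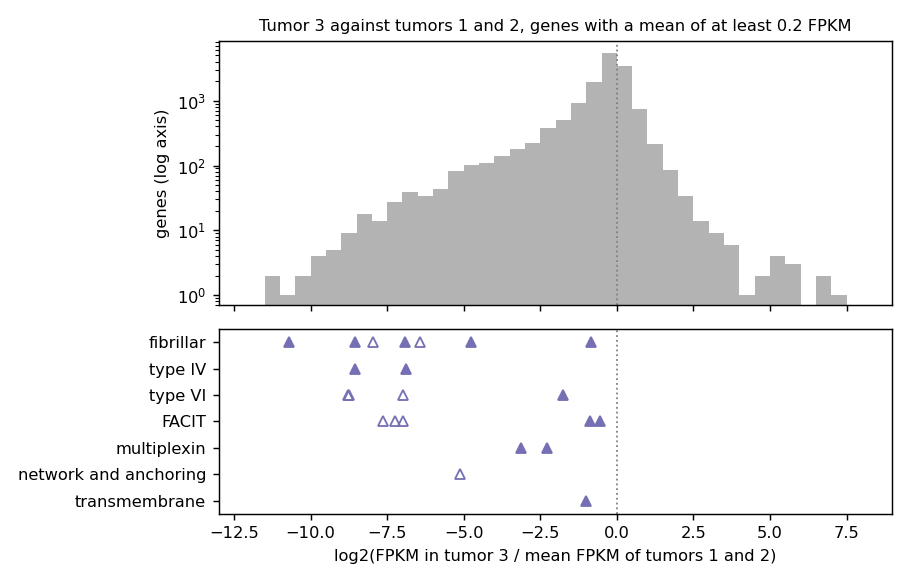
Upper part, the number of genes (log axis) by log2 of FPKM in tumor 3 over the mean FPKM of tumors 1 and 2, for the 14721 genes with a mean of at least 0.2 FPKM; lower part, the 22 collagen chains with such a mean, by class, open where tumor 3 had no read. The bulk of genes stands near 0, and the chains extend from there to the far left end of the distribution.

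The fibrillar class has 11 chains, which form the banded fibrils that bear tension. Summed FPKM of the class was 8.05, 55.3 and 4.53 in tumors 1, 2 and 3. Col1a1 (chr11:94936224-94953042 in mm10), the α1 chain of type I collagen, had 1.63, 15.5 and 0.315 FPKM in tumors 1, 2 and 3. Tumor 2 was 9.53-fold above tumor 1 (95% counting interval 8.47 to 10.7) and 49.1-fold above tumor 3 (36.3 to 68.1). Col1a2, its α2 partner, had 1.34, 7.40 and 0.0116 FPKM, the last value resting on 3 reads. Both chains of type I collagen were therefore highest in tumor 2, and in tumor 3 the α2 chain was close to the limit of detection while the α1 chain, with 43 reads, was not.

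Col3a1 (chr1:45311538-45349706 in mm10), the chain of the type III collagen of reticular fibers, had 1.86, 14.3 and 0.00490 FPKM in tumors 1, 2 and 3. These values came from 560, 2670 and 1 reads, so the main reticular collagen of lymph nodes was close to undetected in tumor 3. Col5a1, which helps to start type I fibrils, had 0.249, 2.48 and 0.0113 FPKM, the last from 2 reads. Its partner Col5a2 had 0.329 FPKM in tumor 1, 1.90 in tumor 2 and no read in tumor 3, where 3 reads would be 0.0151 FPKM. With 3 reads put in place of 0, tumor 2 was 126-fold above tumor 3 for Col5a2, and the lower limit of the counting interval was 102. Col5a3, another chain of type V, was largely a gene of tumor 2, with 1.05 FPKM there, 0.0430 in tumor 1 and no read in tumor 3.

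Col11a2 encodes a chain of type XI collagen, best known from cartilage, and had the highest mean FPKM of all 44 chains. It had 2.50, 12.4 and 4.12 FPKM in tumors 1, 2 and 3, and was the only fibrillar chain above 1 FPKM in tumor 3. The other type XI chain, Col11a1, had no read in any tumor, and Col2a1, the type II chain of cartilage, stayed at or below 0.00878 FPKM. Of 6 cartilage markers none was above 0.2 FPKM in every tumor, beside 36.7% of all genes. Their sums were 0.167, 0.154 and 0.128 FPKM, led by Comp, Matn1 and Sox9. The reads of Col11a2 did not come out whole with the exon length used here, so it is uncertain which of its exons were counted. Col27a1 and Col24a1 stayed below 0.2 FPKM in all tumors.

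Promoters are shown for 6 chains, 3 that were at or near 0 reads in tumor 3 (Col3a1, Col5a1 and Col6a2) and 3 that kept a level there (Col6a3, Col23a1 and Col11a2). The sequences are from RefSeq (GRCm38.p6), 150 bases up to the base before the transcription start, 5′ to 3′ on the strand of the gene, and none of these stretches overlaps an annotated exon of GENCODE M21. For Col11a2 the transcription start used here lies upstream of the gene start listed with its FPKM (34039437 in mm10). Capitals mark CpG dinucleotides, the sites that DNA methyltransferases modify. The promoter table held 35 of the 44 symbols, and since this is under 80% no property was summarised over the chains.
Col3a1 (chr1:45311388-45311537, plus strand): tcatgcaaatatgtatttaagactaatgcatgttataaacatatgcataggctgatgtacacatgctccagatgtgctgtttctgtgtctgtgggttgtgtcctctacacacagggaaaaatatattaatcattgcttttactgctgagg
Col5a1 (chr2:27886275-27886424, plus strand): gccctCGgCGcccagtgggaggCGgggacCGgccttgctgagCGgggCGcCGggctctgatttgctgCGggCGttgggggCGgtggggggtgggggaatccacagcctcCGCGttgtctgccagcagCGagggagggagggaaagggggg
Col6a2 (chr10:76623631-76623780, minus strand): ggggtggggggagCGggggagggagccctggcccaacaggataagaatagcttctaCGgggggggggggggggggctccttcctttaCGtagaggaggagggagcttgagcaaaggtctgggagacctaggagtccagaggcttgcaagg
Col6a3 (chr1:90843972-90844121, minus strand): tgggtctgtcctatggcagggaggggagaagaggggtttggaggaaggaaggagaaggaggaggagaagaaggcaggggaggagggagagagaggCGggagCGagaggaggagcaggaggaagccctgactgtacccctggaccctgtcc
Col23a1 (chr11:51289770-51289919, plus strand): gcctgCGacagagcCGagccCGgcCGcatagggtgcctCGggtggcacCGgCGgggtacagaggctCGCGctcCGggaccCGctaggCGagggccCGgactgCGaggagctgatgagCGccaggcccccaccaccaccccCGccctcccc
Col11a2 (chr17:34038988-34039137, plus strand): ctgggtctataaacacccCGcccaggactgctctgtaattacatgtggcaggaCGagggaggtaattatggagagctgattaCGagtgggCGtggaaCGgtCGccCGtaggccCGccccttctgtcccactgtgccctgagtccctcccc

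These 6 stretches held 0, 13 and 3 CpGs for Col3a1, Col5a1 and Col6a2, and 2, 16 and 8 for Col6a3, Col23a1 and Col11a2, beside a median of 4 over 32851 promoters. CpG-poor and CpG-rich promoters thus stood on both sides. TATAAA, searched on both strands, was found before Col3a1 and Col11a2 and in 7.57% of all promoters over the same 150 bases. GGGCGG, whose letters include a CpG, was found before Col5a1, Col23a1 and Col11a2 and in 28.6% of all promoters. CCAAT was in none of the 6 and in 24.5% of all promoters. Methylation of these sites was not analysed here.

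Type IV collagen forms the sheet of basement membranes, and its 6 chains held 3.68, 22.5 and 0.104 FPKM in tumors 1, 2 and 3. Tumor 2 exceeded tumor 3 by 216 times, the widest ratio of any class. Col4a1, the α1 chain found in nearly all basement membranes, had 2.03, 13.2 and 0.0645 FPKM, from 465, 1869 and 10 reads. Its partner Col4a2 had 1.61, 9.27 and 0.0145 FPKM, from 328, 1164 and 2 reads. The 2 chains kept the same order of tumors. Their genes lie head to head on chromosome 8 and share 22 exonic bases on opposite strands, too few to link their counts by much. Col4a3, Col4a4, Col4a5 and Col4a6, chains of kidney and epithelial basement membranes, had at most 6 reads in any tumor.

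Type VI collagen forms beaded filaments around cells, from α1, α2 and α3 chains. Its 6 genes summed to 6.70, 12.98 and 0.806 FPKM in tumors 1, 2 and 3. Col6a1 had 1.48 FPKM in tumor 1, 7.15 in tumor 2 and no read in tumor 3, where 3 reads would be 0.0330 FPKM. Col6a2 had 1.19 and 3.25 FPKM in tumors 1 and 2 and no read in tumor 3, where 3 reads would be 0.0173 FPKM. With 3 reads put in place of 0, tumor 2 was 217-fold above tumor 3 for Col6a1 and 187-fold for Col6a2. The lower limits of the counting interval were 176 and 152.

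Col6a3 (chr1:90765923-90843971 in mm10), the large α3 chain, followed another order, with 3.91, 1.38 and 0.777 FPKM in tumors 1, 2 and 3. These values came from 1437, 313 and 193 reads, and tumor 1 was 2.83-fold above tumor 2 (95% counting interval 2.51 to 3.21). Tumor 3, without a read for the α1 and α2 chains, thus had an α3 level of 0.671 to 0.894 FPKM by its counting interval. Col6a4, an alternative to the α3 chain, went with the other chains, with 0.103, 1.17 and no detectable FPKM in tumor 3. Col6a5 and Col6a6 had at most 4 reads in any tumor.

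The FPKM of chains of one collagen type can be set side by side within a tumor, but their ratio depends on the exon length used. That length counts all annotated exons of a gene, with 6563 bases for Col1a1 and 12426 for Col1a2. Only the change of a ratio between tumors is therefore read here. The ratio of Col1a1 to Col1a2, which assemble in a fixed proportion in the common form of type I collagen, was 1.21 in tumor 1 and 2.10 in tumor 2. In tumor 3 it was 27.1, with a counting interval of 8.69 to 137 because of the 3 reads of Col1a2. That interval lies above the ratios of both other tumors. Col4a1 to Col4a2 gave 1.26, 1.42 and 4.43, and the interval of the last, 0.945 to 41.6, covers both others.

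Col6a1 to Col6a2 gave 1.24 in tumor 1 and 2.20 in tumor 2, and no ratio in tumor 3, where neither was detected. Col6a3 to Col6a1 was 2.64 in tumor 1 (95% counting interval 2.28 to 3.08) and 0.193 in tumor 2 (0.168 to 0.222). In tumor 3, with Col6a1 taken at 3 reads, it was 23.6. The lower limit of the counting interval in tumor 3, which includes the error of the Col6a3 reads, was 19.0. The ratio of Col6a3 to Col6a1 was therefore lower in tumor 2 than in tumors 1 and 3. Such intervals cover counting error only, not the differences between animals.

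**Figure D2:**
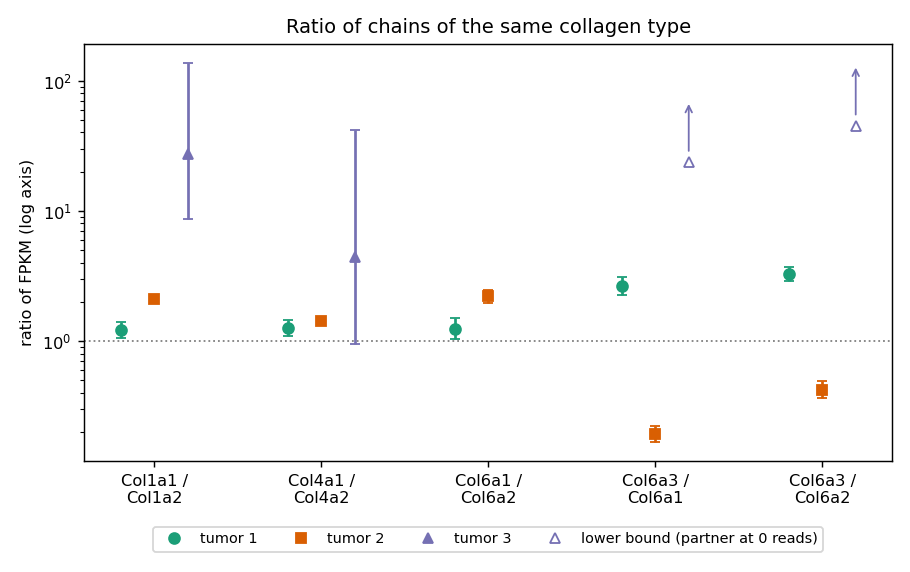
Ratio of FPKM between chains of the same collagen type in each tumor, on a log axis, with 95% counting intervals as bars. Arrows stand where the partner had 0 reads, and the symbol there is the ratio with the partner at 3 reads. Ratios of type I and type IV chains run from 1.21 to 2.10 in tumors 1 and 2, whereas those of Col6a3 fall below 1 in tumor 2 alone; Col6a1 over Col6a2 has no symbol for tumor 3.

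FACIT collagens, the fibril-associated chains with interrupted triple helices, sit on the surface of fibrils and link them to other matrix. The 9 chains of this class and its relatives summed to 3.34, 10.6 and 2.92 FPKM. Col14a1 had 0.650 FPKM in tumor 1, 1.81 in tumor 2 and no read in tumor 3. Col12a1, found like Col14a1 in dense connective tissue, had 0.359 and 0.502 FPKM in tumors 1 and 2. It had no read in tumor 3, where 3 reads would be 0.00948 FPKM. Col16a1 had 0.178 and 1.44 FPKM and no read in tumor 3. These 3 chains thus had the order of the fibrillar chains they accompany.

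Col20a1 and Col9a3 did not. Col20a1 had 1.54, 4.48 and 2.07 FPKM, and Col9a3, a chain of type IX collagen, had 0.591, 2.33 and 0.7997 FPKM. For both genes tumor 3 lay between the other tumors. Col9a3 rested on 70, 170 and 64 reads, and its ratio of tumor 3 to tumor 1 was 1.35 with a 95% counting interval of 0.948 to 1.93, so these tumors did not differ beyond counting error. The partners of Col9a3 in type IX collagen were at or near 0, with no read for Col9a1 and 1 read in all for Col9a2. The last exons of Col9a3 share 234 bases, 6.07% of its exon length, with the antisense gene Tcfl5, which had at most 0.0514 FPKM. Col20a1 shares 79 bases with BX649560.1 on the same strand, which had 2.26, 4.34 and 2.79 FPKM, and its reads did not come out whole. Whether the counting used strand is not given in the sources used here, so these levels are uncertain. Col19a1 and Col22a1 had no read in any tumor.

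Multiplexins are proteoglycan-like collagens of vessel and epithelial basement membranes. Col15a1 had 0.210, 2.28 and 0.258 FPKM in tumors 1, 2 and 3, so tumor 2 stood 10.9-fold above tumor 1 and 8.86-fold above tumor 3. Tumors 1 and 3 did not differ beyond counting error, with a ratio of tumor 3 to tumor 1 of 1.23 (95% counting interval 0.755 to 1.98). Col18a1, the precursor of endostatin, had 0.209, 0.743 and 0.0549 FPKM, the last from 8 reads.

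Among network-forming and anchoring chains, Col8a1 and Col8a2, the pair of type VIII collagen, were nearly confined to tumor 2, with 0.413 and 0.658 FPKM there. In tumors 1 and 3 both stayed at or below 0.00965 FPKM. Col7a1, the chain of the fibrils that anchor epidermis, had 0.155, 0.215 and 0.197 FPKM. It was the least variable of the 24 chains, with a mean of 0.189 ± 0.0308 FPKM (SD, n = 3), and the intervals of all its ratios between tumors included 1. Col10a1, of growth plate cartilage, had at most 4 reads in any tumor.

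Membrane-spanning collagens hold their triple helix outside the cell on a transmembrane anchor. Col23a1 (chr11:51289920-51583918 in mm10) was the main chain of this class, with 2.16, 4.06 and 1.55 FPKM in tumors 1, 2 and 3. It was read 380, 442 and 185 times, and its spread over the tumors was narrow beside that of the fibrillar chains, with a mean of 2.59 ± 1.31 FPKM (SD, n = 3). In tumor 3 it made up most of the 1.61 FPKM of its class, and only Col11a2 and Col20a1 were higher there. Col17a1, a hemidesmosome component, stayed at or below 0.155 FPKM, Col13a1 had 5 reads in tumor 1 and none in the others, and Col25a1 had none at all. Col28a1 and Col26a1, outside these classes, stayed below 0.2 FPKM.

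**Figure D3:**
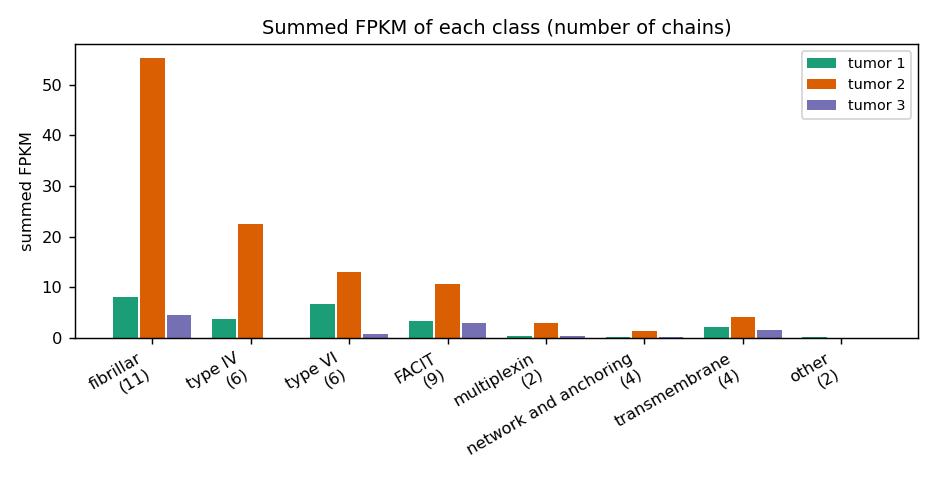
Summed FPKM of each structural class in each tumor, with the number of chains of the class in brackets and bars that start at 0. Tumor 2 exceeds the other tumors in each class but the last, and type IV has almost no bar in tumor 3.

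The mix of classes differed between the tumors as well as the total. Of the summed collagen FPKM, fibrillar chains made up 32.5%, 50.3% and 43.0% in tumors 1, 2 and 3. In tumor 3 Col11a2, whose reads are uncertain, held 4.12 of the 4.53 fibrillar FPKM, so the other fibrillar chains had a minor share there. FACIT chains made up 13.5%, 9.64% and 27.7%, and in tumor 3 Col20a1, uncertain as well, held 2.07 of their 2.92 FPKM. Type IV chains made up 14.8%, 20.5% and 0.992%, and type VI chains 27.1%, 11.8% and 7.67%. Membrane-spanning chains rose to 15.3% of the small total of tumor 3, against 9.02% and 3.85% in tumors 1 and 2. Without Col11a2 and Col20a1, whose reads did not come out whole, and Col9a3, which overlaps another gene, the sums were 20.1, 90.8 and 3.53 FPKM, and the ratio of tumor 2 to tumor 3 was 25.7. This setting was chosen after the values had been seen.

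Col3a1 and Col5a2, 24614 bases apart on chromosome 1, both had tumor 2 highest and at most 1 read in tumor 3, as did Col6a1 and Col6a2, 85161 bases apart on chromosome 10. As 21 of the 22 chains were highest in tumor 2, wherever they lie, nothing is read from these pairs. Other neighbours differed, and Col6a4 had 190 reads in tumor 2 where Col6a5, 28810 bases away, had 4. The encoded proteins have in common a run of at least 20 Gly-X-Y triplets, found in the coding sequences of all 44 chains. The longest run counted 344 triplets in Col3a1 and 32 in Col12a1, both with at most 1 read in tumor 3. It counted 338 in Col1a1 and Col11a2 and 45 in Col6a3, which kept a level there. Long and short runs thus occurred on both sides. A run is not the length of the helix, which can hold interruptions.

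Many of the enzymes and chaperones that fold and modify procollagen in the endoplasmic reticulum act chiefly on collagens, and some, such as P4hb and Ppib, also serve other proteins. Of 22 such genes 12 were above 0.2 FPKM in every tumor, beside 36.7% of all genes. The sums of the 22 were 219, 192 and 131 FPKM. P4hb, the β subunit of prolyl 4-hydroxylase, led with 101, 66.3 and 45.1 FPKM, followed by Ppib and P4ha1. Serpinh1, the procollagen chaperone HSP47, had 3.21, 14.5 and 0.0591 FPKM in tumors 1, 2 and 3, the last from 3 reads. This chaperone thus had the order of the fibrillar chains, with a wide spread. P4ha1 had that order too, with 17.5, 18.9 and 7.41 FPKM and a narrow spread, and P4hb and Ppib were highest in tumor 1.

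Proteins that surround collagen fibrils, such as small proteoglycans, showed the order of the fibrillar chains as a group. Of 17 such genes 15 had a mean of at least 0.2 FPKM, and tumor 3 was lowest for all 15, beside the 39.9% of all genes given above. Of the 15, 10 had such a mean over tumors 1 and 3 too, and the others passed the limit through tumor 2 alone. Tumor 2 was highest for 8 of the 10 genes kept by tumors 1 and 3, beside 32.4% of all genes. The sums of all 17 were 19.9, 59.9 and 0.603 FPKM, led by Sparc, Bgn and Dcn. Sparc, a collagen-binding glycoprotein, had 3.29, 17.3 and 0.102 FPKM. Dcn, the proteoglycan decorin, had 5.04, 3.27 and 0.00825 FPKM, and so was highest in tumor 1.

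Laminins and other basement membrane partners were less uneven, with 7.61, 16.8 and 3.26 FPKM over 15 genes. Above 0.2 FPKM in every tumor were 4 of the 15, beside 36.7% of all genes. Their most abundant members were Lamb3, Lamc1 and Agrn. Hspg2, the proteoglycan perlecan that binds type IV collagen, had 0.262, 2.03 and 0.0707 FPKM and had the same order of tumors as Col4a1. Tumor 3 was lowest for 10 of the 11 genes with a mean of at least 0.2 FPKM, beside 39.9% of all genes. Only 5 of the 11 had such a mean over tumors 1 and 3. The others passed the limit through tumor 2 alone, so nothing is read from this count.

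Propeptide proteases and lysyl oxidases, 13 genes, summed to 4.13, 14.9 and 4.61 FPKM, led by Adamts14, Pcolce and Loxl3. Lox, which starts the crosslinking of fibrils, had 0.0677, 0.614 and 0.00901 FPKM and was highest in tumor 2. Adamts14, a procollagen N-proteinase, had 0.839, 2.20 and 3.30 FPKM and was the single gene of this list with its highest value in tumor 3. Enzymes of collagen breakdown and their inhibitors, 13 of 14 listed genes found, summed to 18.03, 12.6 and 8.16 FPKM, with Timp2, Mmp14 and Mmp3 most abundant. Mmp2 had 1.00 and 0.798 FPKM in tumors 1 and 2 and no read in tumor 3. Mmp14, its membrane-bound activator, was highest in tumor 3, with 3.73, 1.58 and 5.13 FPKM.

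Collagen receptors, 10 genes, summed to 27.3, 97.9 and 56.9 FPKM. Above 0.2 FPKM in every tumor were 4 of the 10, near the 36.7% of all genes. Itgb1, the integrin β1 subunit shared by many receptors and present on T-cells, had 10.9, 88.7 and 48.1 FPKM and made up most of the sum in tumors 2 and 3, but not in tumor 1, where Lair1 and Ddr1 came next to it with 7.46 and 6.03 FPKM. Tumor 3 was lowest for 3 of the 6 receptor genes with a mean of at least 0.2 FPKM, close to the 39.9% of all genes, and none of the 6 was without a read there.

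Markers of the cell types that make or accompany collagen differed between the same tumors. Of 15 fibroblast markers 3 were above 0.2 FPKM in every tumor, beside 36.7% of all genes. The sums of the 15 were 47.5, 45.0 and 6.41 FPKM, led by Ccl21a, Gsn and Ccl19. Of the 9 with a mean of at least 0.2 FPKM and recovered reads, 5 had no read in tumor 3, beside 4.60% of all such genes. Pdgfra, Pdpn and Ccl19 were among the 5, and Pdgfrb had 1 read. Pdgfra and Mfap5, both without a read in tumor 3, passed the limit through tumor 2 alone. In all, 6 fibroblast markers had such a mean over tumors 1 and 3. Mural markers summed to 5.35, 24.0 and 1.28 FPKM over 8 genes, led by Tagln, Acta2 and Rgs5, and the 4 kept by tumors 1 and 3 were all highest in tumor 2, beside 32.4% of all genes. Endothelial markers summed to 26.3, 26.0 and 6.34 FPKM over 13 genes, led by Pecam1, Plvap and Lyve1. The 9 with a mean of at least 0.2 FPKM were all lowest in tumor 3, beside 39.9% of all genes. Of these 9, 7 had such a mean over tumors 1 and 3 too, and Tie1 and Esam passed the limit through tumor 2 alone. The fibroblast and endothelial sums of tumors 1 and 2 were close. Some abundant genes, such as Ccl21a, Ccl19, Pecam1 and Lyve1, were higher in tumor 1, and others, such as Gsn and Plvap, in tumor 2. The median fibroblast marker had 0.25 FPKM in tumor 1 and 0.688 in tumor 2, and the median endothelial marker 0.483 and 0.883. Pdgfrb, with 0.380 and 1.59 FPKM, and Clec3b, with 1.35 and 12.4 FPKM, were higher in tumor 2 like the collagen chains, whereas Cxcl13 went the other way with 7.87 and 0.688 FPKM, as did Ccl19 and Ccl21a. The part of these cells in the collagen values was not tested.

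Tumor 2 also held the most mRNA of exocrine pancreas and fat. All 15 acinar markers were highest there, beside 32.4% of all genes kept by tumors 1 and 3, with sums of 111, 545 and 2.02 FPKM, led by Ctrb1, Prss2 and Cela2a, and Ctrb1, Cpa1 and Cel had no read in tumor 3. Adipocyte markers, 7 genes, had sums of 1.66, 20.3 and 0.216 FPKM, led by Cfd, Fabp4 and Adipoq. These sums had the order of the collagen sums, tumor 2 above tumor 1 above tumor 3, and their part in the collagen values was not tested.

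**Figure D4:**
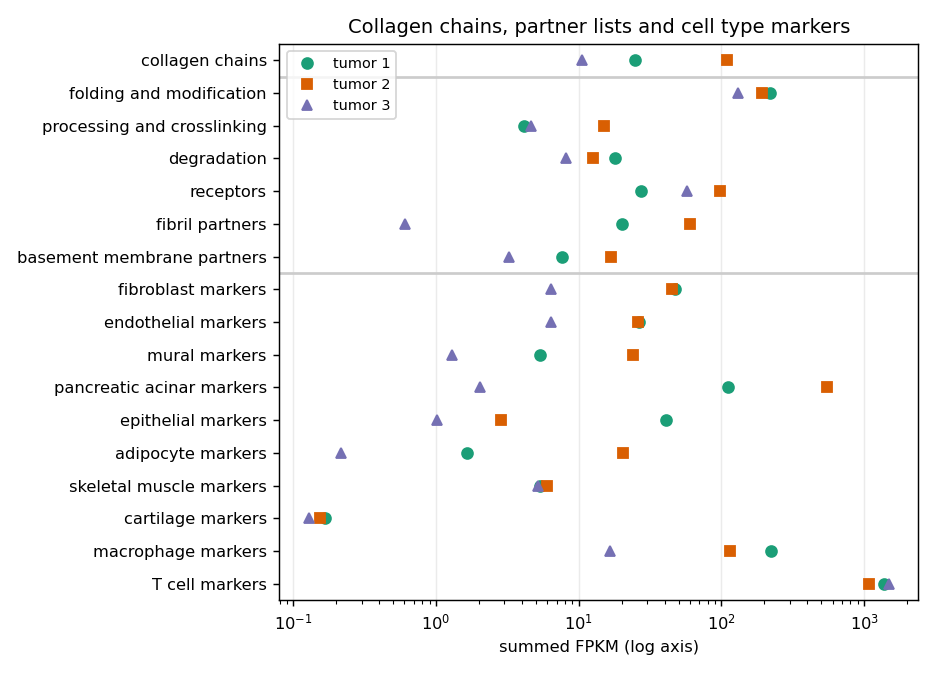
Summed FPKM of the 44 collagen chains, of 6 partner lists and of 10 cell type marker lists in each tumor, on a log axis. Fibril partners and mural, acinar and adipocyte markers have the order of the collagen chains with a wide spread, basement membrane partners with a smaller one, and T-cell markers lie close together in the 3 tumors.

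Most of the other marker lists had other orders. Macrophage markers, 8 genes led by C1qa, C1qb and Cd68, summed to 224, 115 and 16.4 FPKM. Epithelial markers, 8 genes led by Cldn4, Cdh1 and Epcam, summed to 40.6, 2.85 and 1.01 FPKM, and Krt5, Krt14 and Krt19 had no read in any tumor. The order of this sum rests on Cldn4 and Cdh1, while Epcam, with 0.415, 1.14 and 0.307 FPKM, and Krt18 and Krt8 were highest in tumor 2. Skeletal muscle markers, 5 genes, summed to 5.31, 6.02 and 5.15 FPKM, mostly from Mylpf, with Tnnt3 and Ckm next. Of these 3 lists only skeletal muscle had the order of the collagen sums, with a far smaller spread.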

How the data were processed

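RNA-seq of 3 Dnmt3b+/- PTCL was analysed, and 3 bisulfite libraries were not. The authors aligned trimmed paired-end reads of 150 bp to mm10 with STAR and quantified those with a mapping quality of at least 50 in SeqMonk, and the deposited values are FPKM per tumor on a linear scale.

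FPKM multiplied by exon length (GENCODE M21, 99.6% of genes) gave the value of 1 read, since genes without a read hold that of 0.9 read. Reads were whole to within 0.02 read in all tumors for 92.0% of these genes and for 39 of the 44 chains. Intervals are exact (Poisson, or binomial for ratios) at 95% and, like the floor of 3 reads, cover counting error only. No count model was fitted. For repeated symbols the gene with the highest mean was used.

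Gly-X-Y runs were read in the longest coding sequence of each gene, with at most 20% glycine at X and Y. The members and lists were chosen with earlier results of these data known. Named were chains of at least 0.2 FPKM in any tumor, the 3 most abundant genes of each list, and Serpinh1, Lox, Mmp2, Dcn and Hspg2; others were named after their values were seen. Alternatives were other thresholds, scalings, filters and shares, and each tumor left out. Steps were tested on simulated data. Scripts ran in Python 3.11 with SciPy 1.17.1 for intervals, matplotlib 3.10.9 for figures, and NumPy 2.4.6 and pandas 2.3.3 for tables.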

Additional observations from a re-analysis of the deposited data

How the results depend on the processing

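Over 33 alternatives, 23 left the counts of chains within 1.5 times their value, or the mean collagen sum within 1 SD, and 10 did not. Among the 23 are 3 that leave a tumor out of the mean sum, which with n = 3 cannot shift by 1 SD, so they say nothing on how steady it is. Chains above the limit in every tumor numbered 3 at 1 FPKM in place of 7, and 7 to 18 with a tumor left out, the highest without tumor 3. Chains highest in tumor 2 numbered 37 with no filter and 11 with a mean of at least 1 FPKM in place of 21, 13 of 14 with chains kept by tumors 1 and 3, and 22 to 24 with a tumor left out. Chains with a dominant tumor numbered 7 with a mean of at least 1 FPKM in place of 16, 9 of 14 with chains kept by tumors 1 and 3, and 9 to 22 with a tumor left out, the lowest without tumor 2. The 37 include 6 chains without a read in any tumor and Col4a3 and Col9a2, whose only read is in tumor 1. They count for tumor 2 only because the value of no read is largest in the library with the fewest reads, so nothing is read from that count. The other counts follow from fewer chains or tumors. Those with a tumor left out compare fewer tumors and carry no share over all genes, so nothing is read from them. The mean collagen sum was 237 with each tumor rescaled to 1000000, and 17.6 to 67.4 FPKM with a tumor left out, the lowest without tumor 2. The mean of log2(FPKM + 0.1) over the chains was -1.64, from -1.70, -0.61 and -2.61 in tumors 1, 2 and 3. Tumor 2 over tumor 3 was 11.3 when rescaled and 10.1 with median-of-ratios factors, which moved tumor 1 by -0.14 in log2, and the highest tumor was the same for 22 of 22 chains under both. No paired analysis was possible because there is 1 group. With 3 tumors and no control, neither a test nor a Dnmt3b effect can be had, and chains under 3 reads cannot be ranked.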

Other observations

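Gly-X-Y runs also occur outside the collagen chains. Of 21630 genes with a coding sequence, 19 genes other than the chains held a run of at least 20 triplets, and 10 of them had a mean of at least 0.2 FPKM. A mean of at least 0.2 FPKM over tumors 1 and 3 was found for 7 genes, and tumor 2 was highest for 3 of the 7, near the 32.4% of all genes with such a mean. The summed FPKM of all 19 genes was 182, 33.2 and 4.03 in tumors 1, 2 and 3, an order that differs from that of the chains. Marco, a scavenger receptor of macrophages, held most of the sum of tumor 1, with 111, 2.44 and 1.60 FPKM. C1qb, a chain of complement C1q, had 64.4, 20.6 and 1.59 FPKM. Both genes were highest in tumor 1, as was the macrophage marker sum, of which C1qb is part. Adipoq, the adipocyte hormone adiponectin and a marker of fat, had 0.0943 and 2.18 FPKM in tumors 1 and 2 and no read in tumor 3. These genes were chosen after the values had been seen.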
